A study of Mus musculus with 7 samples.

Results

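The collagen chains are the genes on this mouse expression array whose names have the form Col, a type number, a and a chain number. The rule found 43 genes, measured by 68 probes, among 34792 gene names and 55670 probes, and it used no measured value. By textbook class, 11 of them encode fibrillar chains and 6 the basement membrane chains of type IV collagen. A further 9 encode FACIT chains, which bind to the surface of fibrils, and 17 belong to other classes (beaded filament, network-forming, multiplexin, transmembrane and types VII and XXVIII). Arrays were run on adult cardiac mesenchymal progenitors (CMPs), which are adherent stromal cells cultured from C57BL/6 mouse heart, and on whole heart RNA.

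All CMPs were grown on dishes coated with collagen I, in DMEM/F12 with 10% fetal bovine serum, to which bFGF, a fibroblast growth factor, was added at 40 ng/ml. Postmortem CMPs came from tissue kept for 24 h at 4 °C after death and living CMPs from living animals, each with 1 atrial and 1 ventricular array. Adult heart was 1 array of commercial total RNA (Clontech), for which the labels give no strain, age or number of animals. Fetal heart was 2 arrays at embryonic day 16.5, 1 of wild-type C57BL/6 and 1 of C57BL/6-Tg(Myh6-EGFP)MG2, a line in which the promoter of a heart muscle myosin gene drives a green fluorescent protein. Nothing in the labels says that arrays of a group came from separate animals or cultures, so each p-value reflects the spread among these arrays alone. That spread may in part be technical, and it is not a spread among repeats of 1 condition. In the main fit it comes from the 2 fetal arrays, which differ in genotype, and from how far the postmortem difference varied with chamber among CMPs.

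Collagens are trimers of alpha chains wound into a triple helix, and each type has its own set of chains. The chains are hydroxylated, folded and trimerised in the endoplasmic reticulum and secreted. Fibrillar procollagens are then cut by propeptide proteinases, assembled into fibrils and crosslinked by lysyl oxidases. In heart, fibroblasts are known as the main source of types I and III, while type IV lines muscle cells and vessels.

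A level below is the log2 processed signal of a gene's probe minus the array's 75th percentile, so that 0 is the 75th percentile of all probes and a step of 1 is a 2-fold change. Levels of different chains were not set against each other, since probes differ in binding. The summed marker levels are an exception. They add the linear signals of different probes, so probe binding also affects which gene sets a sum. CMP values are listed with the 2 postmortem arrays before the 2 living ones and atrium before ventricle in each, and fetal values with wild type first. A probe counts as measured where the scanner software called it well above background, and is called dim otherwise. Where 1 side was dim on all its arrays, the fold is given as a lower bound. A gene was called where limma's adjusted p (Benjamini-Hochberg over all genes tested, two-sided) was under 0.05. The single adult array is taken by the fit to vary like the other groups.

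On each array 46.5% to 52.5% of all probes cleared background, and none was saturated. Fibroblast markers were present on every array, all 7 of 7 genes, with a summed level of 8.73 to 9.75 in CMPs, 8.75 in adult heart and 6.28 to 6.75 in fetal heart. The adult sum is set mainly by Dcn (8.50 there and 6.52 to 8.29 in CMPs). Gene by gene, 5 of the 7 were called higher in CMPs than in adult heart (median 2.79) and 6 than in fetal heart (median 2.92). In both comparisons 0 were called lower. Of all genes tested 24.6% and 22.8% were called higher. Of 8 cardiomyocyte markers all 8 were lower in CMPs than in either heart. Their summed level was 0.50 to 4.12 in CMPs and 11.37 to 12.84 in hearts. The CMP sum is set mainly by Tnnt2 (4.02, 2.73, 4.10 and 0.11), which was above background on all 4 CMP arrays. Myl2 and Ryr2 were above it on 2 CMP arrays each, and Myh6, Actc1, Tnni3, Myl3 and Pln on no CMP array. In RNA of a mixture, fewer cells of a type and less RNA per cell cannot be told apart. Culture and cell make-up differ between CMPs and hearts at the same time and cannot be told apart either.

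Of the 43 genes, 18 were well above background on all 7 arrays and 27 on all 4 CMP arrays. Col19a1 (a FACIT chain) and Col6a4 (a beaded filament chain) were above it on none. Each CMP array measured 29 or 30 of the chains, the adult heart 25, the wild-type fetal heart 37 and the transgenic fetal heart 28. Col28a1 was above background on all 4 CMP arrays and on no heart array, and Col6a6 on both fetal arrays and no CMP array. The fetal pair therefore differed in how many chains it showed, since 9 chains were above background in the wild type only and 0 in the transgenic heart only. Over all genes the wild-type array showed 60.8% above background, the transgenic one 57.7%, the adult one 54.8% and the CMP arrays 54.6% to 57.9%.

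**Figure D1:**
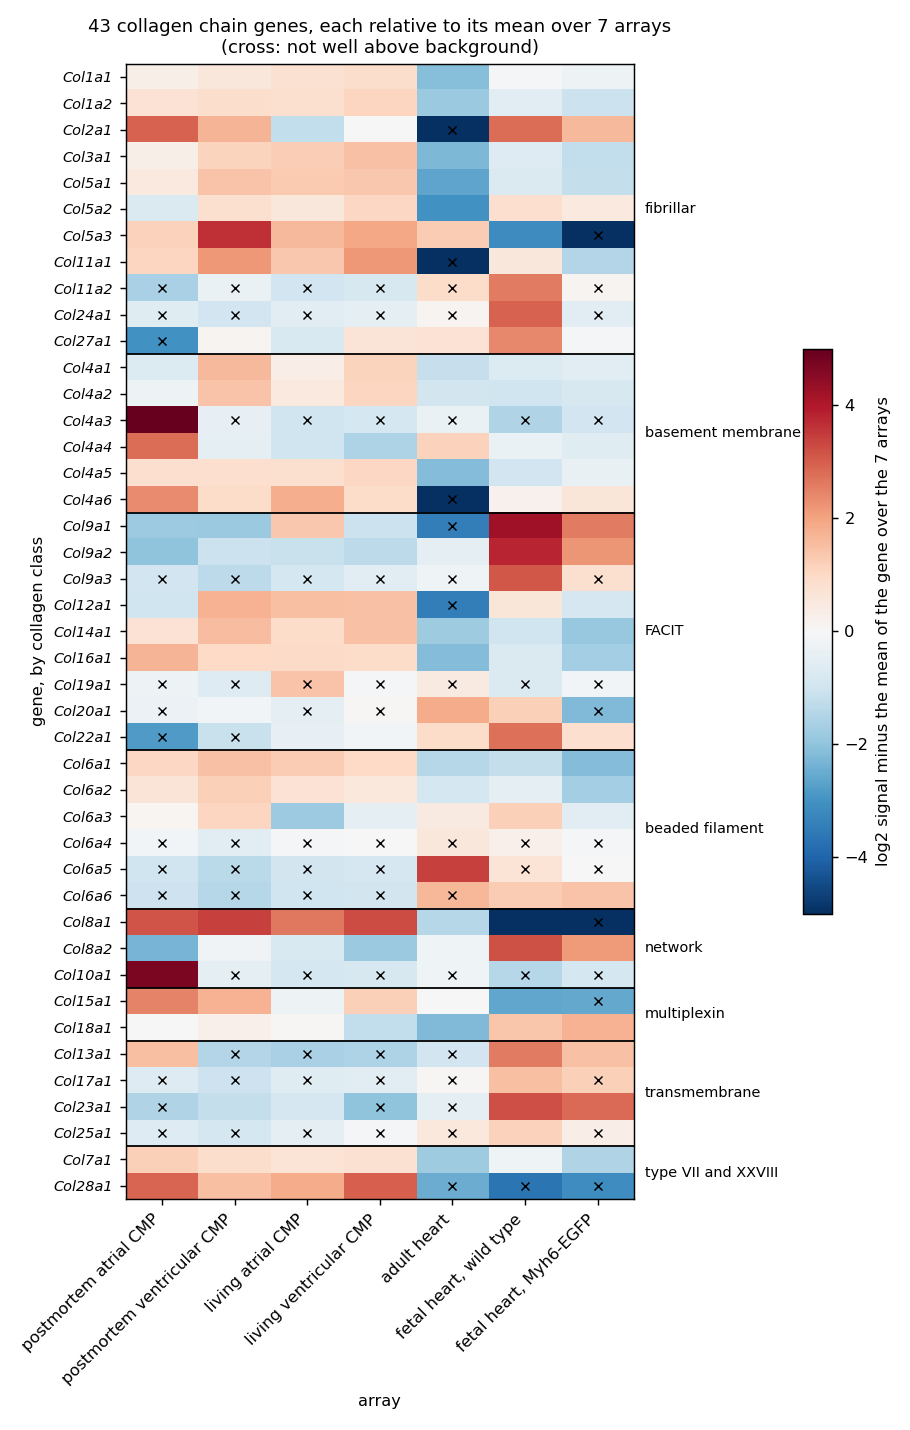
Levels of the 43 collagen chain genes on the 7 arrays, each gene centred on its own mean over the arrays (colour, log2), in rows by collagen class; a cross marks a probe that was not well above background. The 4 CMP arrays share high Col8a1 and Col28a1, and Col4a3 and Col10a1 are measured only on the postmortem atrial array.

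The first comparison asks which chains separate cultured CMPs from fetal heart. CMPs carried more message for Col1a1, Col1a2, Col3a1 and Col5a1, for the ubiquitous type IV chains Col4a1 and Col4a2 and for Col8a1, and less for type IX, Col8a2, Col18a1 and the transmembrane chains Col13a1 and Col23a1. Of 43 chains 32 could be tested, 18 were higher and 8 lower in CMPs, and the median difference was 1.17 on the log2 scale. Over all 20044 genes tested, 22.8% were called higher and 25.2% lower, with a median of -0.01. A chain that enters only because 1 side is bright had to differ, so the count was repeated for the 23 chains above background on every array of both sides. Of these 14 were higher and 4 lower, against 25.0% and 20.6% of all such genes. Without the wild-type fetal array the count of lower chains dropped from 8 to 5.

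Types I and III build the thick fibrils of the myocardium. Col1a1 had levels of 7.51, 7.76, 7.97 and 8.09 in CMPs and 7.11 and 6.95 in fetal heart. The difference was small, 0.81 ± 0.16 (SE, adjusted p = 0.00934), and no CMP array overlapped the fetal pair. It lost its call when any single CMP array was left out (0.78 to 0.84), although its size hardly moved. Col1a2, the partner chain in the type I trimer, measured 9.15, 9.31, 9.23 and 9.51 against 7.93 and 7.36. It differed by 1.65 ± 0.23 (adjusted p = 0.00276). Col3a1, which forms a trimer of its own, measured 7.70, 8.52, 8.63 and 8.86 against 6.73 and 6.15, and differed by 1.99 ± 0.24 (adjusted p = 0.00185). In all 3 genes every CMP array lay above both fetal arrays.

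Type V collagen starts fibrils and limits their width. Col5a1 measured 5.37, 6.31, 6.19 and 6.25 in CMPs and 4.19 and 3.72 in fetal heart, a 4.21-fold difference (2.08 ± 0.24, adjusted p = 0.00167). Its usual trimer partner Col5a2 did not follow, with 1.22, 2.76, 2.51 and 2.99 against 2.80 and 2.46. The difference was -0.26 ± 0.26 (adjusted p = 0.45), and the groups overlapped. Without the postmortem atrial or the living ventricular array it came to 0.00. Col5a3, the third type V chain, measured 1.64, 4.14, 2.10 and 2.39 in CMPs and -2.67 in the wild-type fetal heart, and was not well above background in the transgenic one. The fitted difference of 6.91 ± 0.98 (adjusted p = 0.00316) includes the dim array, and against the measured fetal array alone it was 5.23 ± 0.66 (adjusted p = 0.0119). Col11a1, a close relative of the type V chains best known from cartilage, was higher in CMPs by 2.14 ± 0.56 (adjusted p = 0.0251). Without the transgenic fetal array it was 1.14.

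Type IV collagen forms the sheet of the basement membrane, and its chains lie as head-to-head gene pairs. Col4a1 and Col4a2 make the common trimer. Col4a1 measured 4.50, 6.81, 5.50 and 6.28 in CMPs against 4.47 and 4.62, a difference of 1.23 ± 0.31 (adjusted p = 0.0233) in which the postmortem atrial array lay within the fetal range. The call was lost without either fetal array (1.16 and 1.30). Col4a2 measured 4.91, 6.58, 5.66 and 6.22 against 4.16 and 4.37 and differed by 1.58 ± 0.25 (adjusted p = 0.0047), without overlap. Col4a5 was higher by 1.54 ± 0.20 and Col4a6 by 1.10 ± 0.21. For Col4a6 the second probe differed by 0.41 in the same direction.

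The network chain Col8a1 had the largest fitted difference of the 32 chains tested. Type VIII collagen forms hexagonal sheets and is known from vessel walls and the cornea. Col8a1 measured 4.72, 5.00, 4.21 and 4.83 in CMPs and -3.84 in the wild-type fetal heart, and it was not well above background in the transgenic one. The fitted difference was 8.63 ± 0.18 (adjusted p = 2.73e-05), which includes the dim array, and it was 8.52 ± 0.19 against the measured fetal array alone (adjusted p = 0.00287). Its partner gene Col8a2 went the other way, with -3.69, -1.55, -2.12 and -3.22 in CMPs and 1.83 and 0.75 in fetal heart (-3.93 ± 0.70, adjusted p = 0.00694). Its second probe differed by -1.61, and without the wild-type fetal array the call was lost (-3.39). Col28a1, a short chain with von Willebrand domains, measured -0.04, -1.43, -1.08 and 0.06 in CMPs and was dim in both fetal hearts. Its level in CMPs was at least 13.0-fold higher (adjusted p = 0.00106).

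The sequence before the start of Col8a1 is shown because this gene has the largest fitted difference, and that of Col10a1 because its signal was confined to 1 array (below). Both are the 100 bases before the start site in RefSeq (GRCm38.p6), read 5′ to 3′ on the gene's strand. Col8a1 lies on the minus strand (chr16:57754738-57754837) and Col10a1 on the plus strand (chr10:34389881-34389980). Capitals mark the GC box, GGGCGG or the same letters on the other strand, and the TATA box, TATAAA.
Col8a1: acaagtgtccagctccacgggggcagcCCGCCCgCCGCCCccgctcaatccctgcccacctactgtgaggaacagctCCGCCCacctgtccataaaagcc
Col10a1: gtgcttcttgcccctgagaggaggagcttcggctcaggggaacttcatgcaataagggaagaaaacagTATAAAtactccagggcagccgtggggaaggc
Col8a1 holds the GC box 3 times and Col10a1 the TATA box 1 time. Of the 43 chains 35 had a promoter window in RefSeq, with 38 windows in all. In the 250 bases before the start, on either strand, GGGCGG was in 57.9% of the collagen windows and 32.7% of all 32851 windows. TATAAA was in 13.2% against 12.4%, and CCAAT in 34.2% against 33.8%. A match describes letters only.

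Multiplexins carry interrupted triple helices and heparan or chondroitin sulfate, and they sit at basement membranes. Col15a1 measured 0.94, 0.17, -1.82 and -0.36 in CMPs and -4.17 in the wild-type fetal heart, and was dim in the transgenic one. It was higher in CMPs by 3.87 ± 0.48 (adjusted p = 0.00203), and by 3.90 ± 0.70 against the measured fetal array alone. Its other probes differed by 2.02 and 3.93. Col18a1, the source of endostatin, measured 4.18, 4.43, 4.24 and 2.94 against 5.59 and 5.94. It was lower in CMPs, with a difference of -1.82 ± 0.33 (adjusted p = 0.00708) and the same sign at its second probe (-1.62). Without the transgenic fetal array the Col18a1 call was lost (-1.64). The 2 multiplexins thus differed in opposite directions.

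Type VI collagen makes beaded filaments around cells. Col6a1 measured 7.15, 7.57, 7.38 and 7.11 against 4.92 and 3.92, a difference of 2.88 ± 0.32 (adjusted p = 0.00144). Col6a2 measured 4.23, 4.75, 4.31 and 4.11 against 3.07 and 1.88 (1.87 ± 0.36, adjusted p = 0.00902). Its second probe differed by 4.89, and the mean of both by 3.38. Col6a3, the third chain of the same trimer, measured 2.65, 3.63, 0.74 and 2.12 against 3.75 and 1.97. It overlapped, with a difference of -0.58 ± 0.49 (adjusted p = 0.382). That difference turned to 0.31 without the wild-type fetal array and grew to -1.46 without the transgenic one. Without the postmortem atrial or the living ventricular array Col6a3 was called lower in CMPs (-0.67). Among the FACIT chains, Col14a1 was higher in CMPs by 2.61 ± 0.27 and Col16a1 by 2.35 ± 0.31. Each of their other probes had the same sign (3.02 for Col14a1, 2.41 to 2.84 for Col16a1).

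Type IX collagen decorates the fibrils of cartilage. Col9a1 measured -3.91, -3.96, -0.76 and -3.16 in CMPs and 2.14 and 0.49 in fetal heart, a difference of -4.26 ± 0.67 (adjusted p = 0.00439). Its second probe, above background on 1 CMP array, differed by 0.78, and with the mean of both probes the call was lost (-1.74). Col9a2 had 1 probe and differed by -4.39 ± 0.52 (adjusted p = 0.0017). It measured -2.74, -1.78, -1.84 and -2.04 against 3.09 and 1.50. Lower in CMPs as well were Col23a1 (-4.40 ± 0.41), Col22a1 (-2.92 ± 0.65), a FACIT chain of tissue junctions, Col13a1 (-2.80 ± 0.72) and Col6a6. CMPs were dim for Col6a6 on all 4 arrays, and fetal heart was at least 1.32-fold higher (adjusted p = 0.00486). Without the wild-type fetal array Col22a1 (-1.96) and Col13a1 (-2.24) lost their calls, and Col13a1 also without the transgenic one (-3.36). Type VII collagen anchors epithelia to the tissue below, and its chain Col7a1 was higher in CMPs by 1.75 ± 0.39 (adjusted p = 0.0156). With normexp background correction, which compresses values near background, 7 called chains moved by more than 1.5 times: Col5a3 to 4.30, Col28a1 to 2.23, Col15a1 to 2.07, Col23a1 to -2.41, Col22a1 to -1.21, Col13a1 to -0.84 and Col6a6 to -0.41, where its call was lost. The chains not called were Col2a1, Col5a2, Col27a1, Col4a4, Col12a1 and Col6a3.

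**Figure D2:**
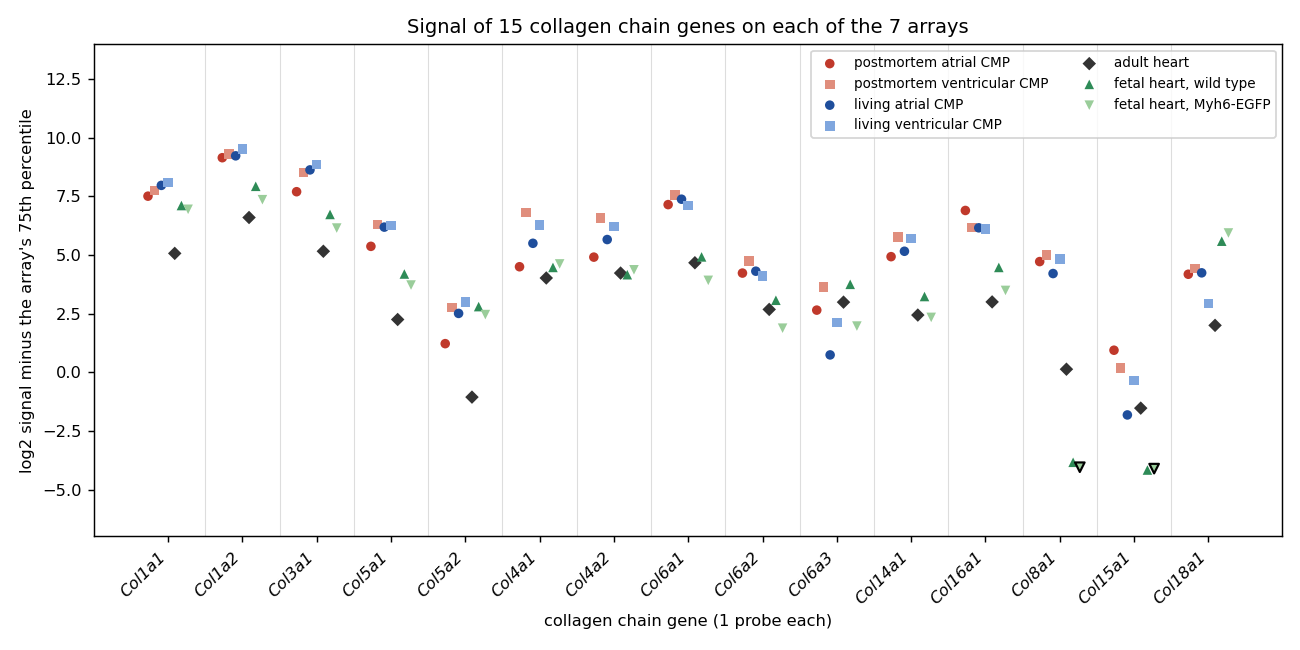
Level (log2 signal minus the array's 75th percentile) of 15 collagen chain genes on the 7 arrays, 1 point per array; a black outline marks a point not well above background. CMP points for Col1a2, Col3a1 and Col5a1 lie above all 3 heart points, those for Col5a2 and Col6a3 overlap the fetal ones, and Col8a1 spans from 5.00 in CMPs to -3.84 in the wild-type fetal heart.

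Against adult heart, CMPs carried more message for Col1a1, Col1a2, Col3a1, Col5a1 and Col5a2, for the common type IV chains and for Col6a1 and Col8a1, and less for the beaded filament chain Col6a5. No transmembrane chain could be tested. Of 31 chains tested 20 were higher and 1 was lower, with a median difference of 2.63, while 24.6% of all genes tested were called higher and 24.6% lower. Among the 21 chains above background on every array of both sides, 15 were higher and 0 lower, where all such genes gave 26.0% and 18.9%. By class, 7 of 9 tested fibrillar chains were higher, 4 of 5 basement membrane chains, 3 of 7 FACIT chains and 6 of 10 others. The adult side is 1 array, and with a CMP or fetal array left out the count of lower chains ran from 2 to 6.

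Col1a1 was at 5.07 in adult heart, below every CMP array, and differed by 2.77 ± 0.20 (6.80-fold, adjusted p = 0.000591). Col1a2 at 6.60 differed by 2.70 ± 0.29, and Col3a1 at 5.16 by 3.27 ± 0.31. Col5a1 at 2.25 differed by 3.78 ± 0.31 (adjusted p = 0.000752). Col5a2, which did not separate CMPs from fetal heart, was at -1.06 in adult heart and differed by 3.43 ± 0.34 (adjusted p = 0.00112). In Col5a3 adult heart was at 1.75, inside the CMP range, with a difference of 0.82 ± 1.27 (adjusted p = 0.619).

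Several chains were dim on the adult array and so have only a bound. Col2a1, the chain of cartilage fibrils, was at least 103-fold higher in CMPs (adjusted p = 0.000792), where it measured 5.37, 4.14, 1.18 and 2.42. Col11a1 was at least 41.3-fold higher (adjusted p = 0.00103), and Col12a1, a FACIT chain of dense connective tissue, at least 20.6-fold (adjusted p = 0.00949). Col28a1 was at least 6.90-fold higher (adjusted p = 0.0044). Col4a6 was at least 91.7-fold higher at the probe used (adjusted p = 0.000186), which read 3.97, 2.54, 3.42 and 2.51 in CMPs. The second Col4a6 probe was measured on all 7 arrays between -1.88 and -0.48 and differed by 0.21, so the probes of this gene disagree (mean of both 4.27). The second Col12a1 probe was dim on all 7 arrays (mean of both 1.82). With normexp 6 called chains moved by more than 1.5 times: Col2a1 to 5.06, Col4a6 to 4.77, Col11a1 to 3.94, Col12a1 to 2.67, Col28a1 to 1.49 and Col6a5 to -1.43.

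Col2a1 belongs to the cartilage programme, and the cartilage markers gave a mixed picture. Sox9, a factor that drives Col2a1 in cartilage, was at 2.09, 3.25, 3.11 and 3.18 in CMPs and -0.76 in adult heart (3.67 ± 0.46, adjusted p = 0.0023). Matn1, Lect1 and Hapln1 were above background on no CMP array. The summed level of the 7 markers was 2.62, 4.65, 6.39 and 4.72 in CMPs, 3.43 in adult heart and 3.50 and 2.89 in fetal heart. In CMPs this sum was set mainly by Comp (0.56, 3.77, 6.20 and 4.03) and Sox9, so it says little of the other markers. The part of the cartilage markers in the Col2a1 result was not tested.

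Col4a1 and Col4a2 were higher in CMPs than in adult heart by 1.76 ± 0.40 and 1.61 ± 0.32, with adult levels of 4.02 and 4.23. Col4a5 differed by 3.02 ± 0.26. Col6a1 differed by 2.63 ± 0.41 and Col6a2 by 1.67 ± 0.47 (adjusted p = 0.0307). That call was lost with quantile normalization (1.60). Col6a3 again stood apart, with 2.99 in adult heart and a difference of -0.71 ± 0.63 (adjusted p = 0.387). Without the postmortem atrial or the living ventricular array it was called lower in CMPs (-0.81). Col8a1 at 0.13 differed by 4.56 ± 0.23 (adjusted p = 0.000289), and Col18a1 at 2.00 by 1.94 ± 0.42, the reverse of its sign against fetal heart. For Col15a1 the adult level of -1.53 lay within the CMP range, and the difference of 1.26 ± 0.62 was not called (adjusted p = 0.145). It was called without the living atrial or the postmortem ventricular array (1.82). The only chain called lower was Col6a5, which was dim on all CMP arrays and at -1.72 in adult heart, at least 5.46-fold higher there (adjusted p = 0.00222). The second Col6a5 probe was above background on no array (mean of both -2.60). The FACIT chains Col14a1 (2.96 ± 0.35) and Col16a1 (3.34 ± 0.40), and Col7a1 (2.64 ± 0.51), were higher in CMPs. Col20a1 (-2.06 ± 1.22, adjusted p = 0.213) and Col22a1 (-2.04 ± 0.84, adjusted p = 0.0933) were the next lowest, and neither was called in the main setting. Both were called with any 1 CMP array left out, where the spread comes from the fetal pair alone. The differences were then -2.15 to -1.96 for Col20a1 and -2.39 to -1.69 for Col22a1. With normexp Col20a1 was called as well (-0.94).

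**Figure D3:**
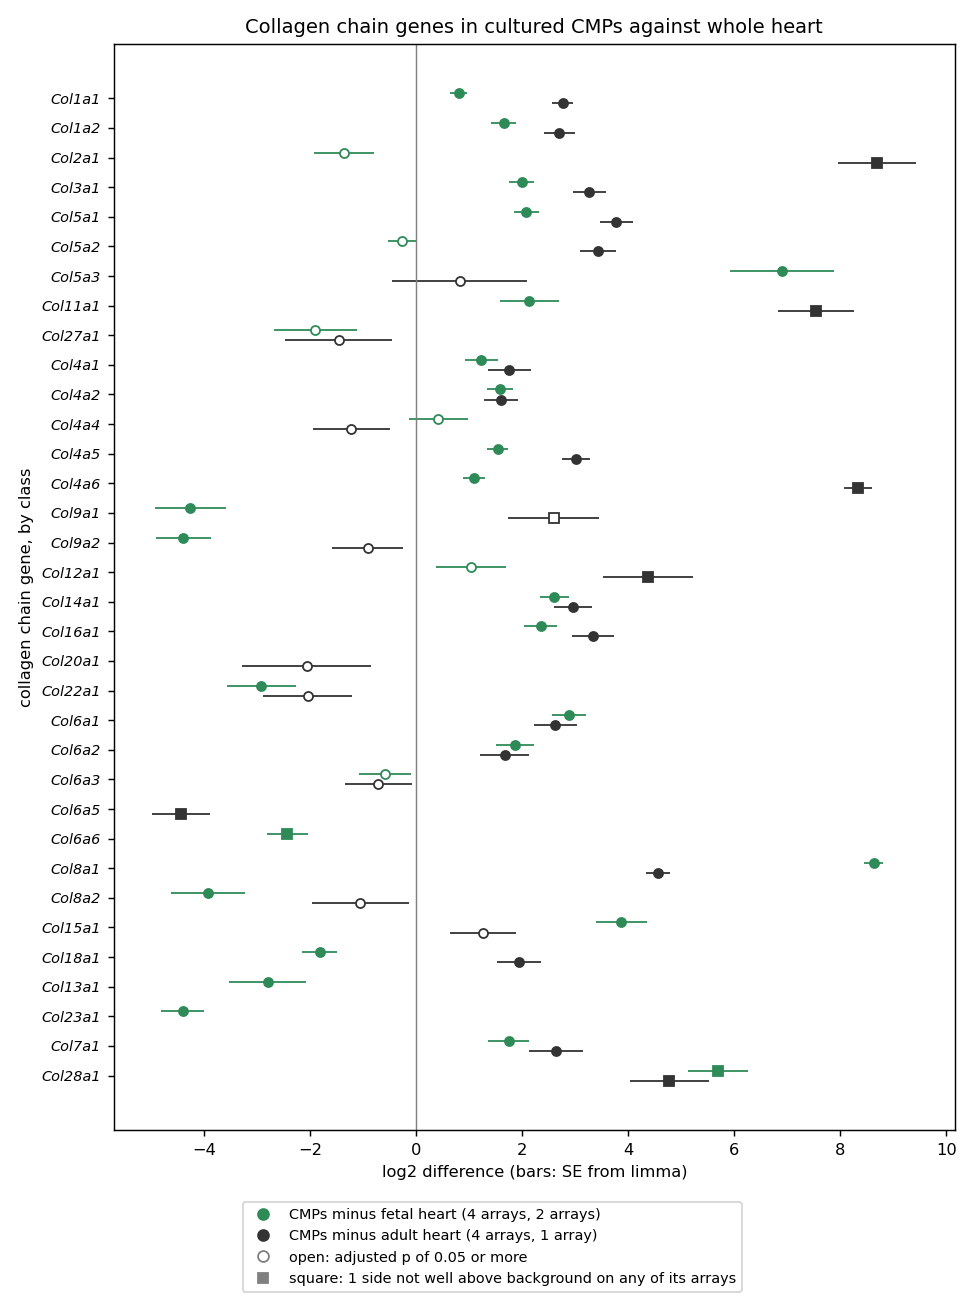
Log2 difference between the CMP arrays and fetal heart (green) or adult heart (black) for each tested collagen chain gene, with its SE from limma as a bar; filled points had an adjusted p under 0.05, and squares mark a side whose arrays were all dim. Col8a1 reaches 8.63 against fetal heart, and Col2a1 and Col18a1 lie on opposite sides of 0 against fetal and adult heart.

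The heart controls were compared with each other to place the CMP values. Adult heart had less message than fetal heart for most fibrillar chains. Of 33 chains tested 4 were higher and 13 lower in adult heart, with a median of -0.98, and all genes gave 18.8% higher and 18.2% lower. For the 20 chains above background on all 3 arrays 0 were higher and 7 lower, beside 16.2% and 16.5% of such genes. The 3 comparisons among CMPs, adult and fetal heart share arrays, so their values stand side by side and are not independent.

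Adult minus fetal heart was -1.96 ± 0.22 for Col1a1 (adjusted p = 0.00314), -1.27 ± 0.34 for Col3a1 (adjusted p = 0.0349) and -1.70 ± 0.34 for Col5a1 (adjusted p = 0.0152). Without the wild-type fetal array the calls of Col3a1 (-0.99) and Col5a1 (-1.47) were lost. Col1a2 missed the threshold (-1.04 ± 0.32, adjusted p = 0.0512), and passed it without either fetal array (-0.75 and -1.33). Col5a2 differed by -3.69 ± 0.37 (adjusted p = 0.0022). Col2a1 was dim in adult heart and 5.23 and 4.04 in fetal heart, at least 264-fold higher there (adjusted p = 0.00135). Fetal heart was also at least 42.9-fold higher for Col4a6 (again at 1 of 2 probes), 26.5-fold for Col9a1, 11.2-fold for Col23a1 and 9.39-fold for Col11a1. The second probe of Col9a1 differed by 0.57 in the other direction, and the mean of both lost the call (-3.14). The mean of both Col4a6 probes was -3.52. Col9a2 (-3.48 ± 0.73) was lower in adult heart too, and Col18a1 differed by -3.76 ± 0.46 (adjusted p = 0.00383).

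The 4 chains higher in adult heart were Col5a3 (6.09 ± 1.38), Col8a1 (4.07 ± 0.25), Col6a5 and Col15a1 (2.61 ± 0.68). For Col5a3, Col8a1 and Col15a1 the transgenic fetal array was dim, and these fitted differences include it. Adult heart measured 1.75 for Col5a3 and 0.13 for Col8a1, against -2.67 and -3.84 in the wild-type fetal heart. Col6a5 was dim in both fetal hearts and at least 5.72-fold higher in adult heart (adjusted p = 0.0154). The Col15a1 call was lost without either fetal array (2.58 and 2.64), with normexp (1.22), with the mean of probes (1.83) and without a variance trend (2.61). With normexp Col5a3 came to 3.40, Col8a1 to 2.26 and Col6a5 to 1.15, and of the lower chains Col2a1 to -6.37, Col4a6 to -3.73, Col9a1 to -3.24, Col11a1 to -2.11 and Col23a1 to -1.87. The common type IV chains and the main type VI chains were not called. Col4a1 differed by -0.53 ± 0.44 and Col4a2 by -0.04 ± 0.36. Col6a1, Col6a2 and Col6a3 differed by 0.25 ± 0.45, 0.20 ± 0.51 and 0.14 ± 0.69, and these last 4 chains turned sign without the transgenic fetal array. The second Col6a2 probe differed by 2.56. Read over the 7 arrays, Col8a1 was high in CMPs, intermediate in adult heart and near background in fetal heart, and Col18a1 was highest in fetal heart, then CMPs, then adult heart.

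The central comparison of the study, postmortem against living CMPs, gave no called collagen. Of 29 chains tested 0 passed, and 6 had an unadjusted p under 0.05, with limma calling 0.105% of all 19007 genes and 2100 of them at an unadjusted p under 0.05. The median of the chains was -0.08. None was called with the 4 CMP arrays alone, without the chamber term, without a variance trend or under any other scaling or filter tried. With 1 CMP array left out the spread comes from the fetal pair, and 4 to 12 chains passed (4 without the postmortem atrial or the living atrial array, 12 without the postmortem ventricular and 9 without the living ventricular one).

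For the chains of types I and III the arrays were close. Col1a1 averaged 7.64 in postmortem and 8.03 in living CMPs, a difference of -0.39 ± 0.18 (adjusted p = 0.514) without overlap. Col1a2 differed by -0.14 ± 0.26 and Col3a1 by -0.63 ± 0.28 (adjusted p = 0.489). The type V chains differed by -0.37 ± 0.28 (Col5a1) and -0.76 ± 0.30 (Col5a2), the type IV chains by -0.23 ± 0.36 (Col4a1) and -0.20 ± 0.29 (Col4a2). The differences of Col6a1 (0.12 ± 0.37), Col6a2 (0.28 ± 0.42) and Col18a1 (0.71 ± 0.38) were of the same order. The largest differences upward were Col2a1 (2.96 ± 0.66, adjusted p = 0.258), Col4a4 (2.44 ± 0.65, adjusted p = 0.311) and Col6a3 (1.71 ± 0.56, adjusted p = 0.377). Col15a1 followed with 1.65 ± 0.55 (adjusted p = 0.38), higher in postmortem arrays in both chambers (2.76 in atrial and 0.53 in ventricular) and at all 3 of its probes. Downward they were Col9a1 (-1.98 ± 0.77, adjusted p = 0.437), Col22a1 (-1.69 ± 0.74) and Col27a1 (-1.37 ± 0.90). The second Col9a1 probe, above background on 1 CMP array, went the other way (1.34).

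The chains were then compared between chambers. Ventricular against atrial CMPs gave 0 called of 28 tested, with 6 at an unadjusted p under 0.05. Over all genes limma called 0%, with 1560 at an unadjusted p under 0.05. The largest upward differences were Col27a1 (2.28 ± 0.90, adjusted p = 0.598), Col4a1 (1.54 ± 0.36, adjusted p = 0.351) and Col5a3 (1.40 ± 1.13, adjusted p = 0.84). Both chains of the common type IV trimer were higher on both ventricular arrays than on both atrial ones, and Col4a2 differed by 1.11 ± 0.29 (adjusted p = 0.417). Downward the largest were Col4a4 (-1.92 ± 0.65), Col9a1 (-1.23 ± 0.76) and Col4a6 (-1.17 ± 0.24, adjusted p = 0.29), whose second probe had the same sign (-0.76). The second Col9a1 probe went the other way (1.82), and the mean of both turned the sign (0.29). Col1a1 (0.19 ± 0.18), Col1a2 (0.22 ± 0.26), Col3a1 (0.52 ± 0.28) and Col5a1 (0.50 ± 0.28) differed little, Col5a2 by 1.01 ± 0.30 (adjusted p = 0.473). Col6a1 (0.08 ± 0.37), Col6a2 (0.16 ± 0.42), Col6a3 (1.18 ± 0.56), Col15a1 (0.34 ± 0.55) and Col18a1 (-0.52 ± 0.38) were not called either. With 1 CMP array left out 3 to 13 chains passed (3 without either postmortem array, 13 without the living atrial and 10 without the living ventricular one).

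Whether the postmortem difference depended on the chamber was tested with an interaction term. It is the ventricular difference minus the atrial one, each of 1 array against 1, with its spread from the fetal pair alone. Of 29 chains 4 were called, while 2.41% of all genes were. For Col12a1 postmortem minus living was -2.50 in atrial and 0.29 in ventricular CMPs, an interaction of 2.79 ± 0.68 (adjusted p = 0.00344). Col8a2 had -1.57 in atrial and 1.67 in ventricular CMPs (3.24 ± 0.88, adjusted p = 0.0138), and its second probe, dim on all CMP arrays, had the opposite sign (-1.68). That call was lost with normexp (1.47) and with the mean of both probes (0.78). Col5a3 had -0.47 and 1.74 (2.21 ± 0.68, adjusted p = 0.0482). Col2a1 was higher postmortem in both chambers, by 4.20 in atrial and 1.72 in ventricular CMPs (-2.48 ± 0.54, adjusted p = 0.000578). With quantile normalization or without a variance trend 0 of these calls remained, at nearly the same sizes (2.75 and 2.79 for Col12a1, 3.17 and 3.24 for Col8a2, 2.25 and 2.21 for Col5a3, -2.49 and -2.48 for Col2a1). The Col5a3 call was also lost, at 2.21, with the stricter filter (adjusted p = 0.0603) and without the adult array (adjusted p = 0.0677). The Col12a1 call was also lost with the mean of its 2 probes (1.19), of which the second was above background on no array.

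Cell type markers had the same term called beside these chains. Of 7 endothelial markers 5 were called, all higher (median 4.03), among them Emcn, with -3.64, -0.10, 0.00 and -3.23 in CMPs. Called higher were also 2 of 3 tested chondrogenic markers (Comp and Matn4), 2 of 5 Schwann cell markers, 1 of 2 epicardial and 1 of 2 cardiomyocyte markers. Of 7 fibroblast markers 1 was called higher and 1 lower, and of 3 mural and 5 leukocyte markers 0. With quantile normalization none of these marker calls remained, since no gene on the array was called. Without a variance trend fewer genes were called than in the main setting. The part of these markers in the collagen calls was not tested.

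Chains of the major fibrils did not pass this test. The interaction was 0.12 ± 0.79 for Col1a1, -0.12 ± 1.00 for Col1a2, 0.60 ± 0.82 for Col3a1, 0.88 ± 0.57 for Col5a1 and 1.06 ± 0.56 for Col5a2. For the type IV chains it was 1.52 ± 0.59 (Col4a1, adjusted p = 0.239) and 1.12 ± 0.59 (Col4a2). Col6a1 (0.69 ± 0.66), Col6a2 (0.72 ± 0.53) and Col6a3 (-0.40 ± 0.54) were not called, nor were Col15a1 (-2.23 ± 0.90, adjusted p = 0.291) and Col18a1 (1.55 ± 0.54, adjusted p = 0.133). Col4a4 (-2.73 ± 0.90, adjusted p = 0.0827) and Col28a1 (-2.53 ± 1.04, adjusted p = 0.314) were the largest downward among those not called. The Col4a4 term passed the threshold with normexp background correction (-2.48) and with the mean of its probes (-3.79).

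**Figure D4:**
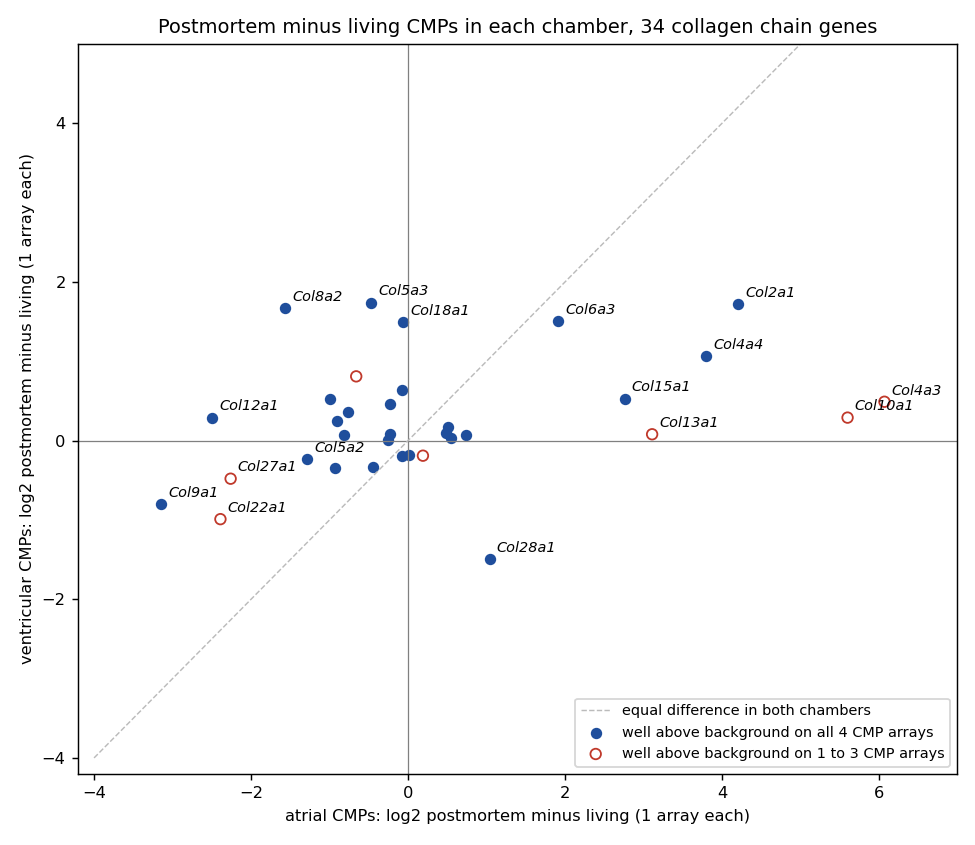
Log2 difference of postmortem minus living CMPs in atrial (horizontal) and ventricular (vertical) cultures, 1 array each, for the 34 collagen chain genes above background on at least 1 CMP array; open points were above it on 1 to 3 CMP arrays, and the dashed line marks equal differences. Col2a1 (4.20), Col4a4 (3.80) and, with the living atrial array dim and so only as a bound, Col4a3 and Col10a1 lie far to the right of the dashed line.

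Of the CMP arrays, the postmortem atrial one stood apart at the most chains. Not every difference above lay on it, since Col5a3 was highest on the postmortem ventricular array (4.14 against 1.64, 2.10 and 2.39). At 16 of 34 chains (47.1%) the postmortem atrial array was at least 2-fold away from the mean of the other 3 CMP arrays, and over all 21817 genes above background on a CMP array the share was 19.5%. For the other CMP arrays it was 23.5% to 32.4% of the chains and 9.57% to 11.1% of all genes. Col4a3, Col10a1 and Col13a1 (5.85, 5.45 and 3.05 from that mean) were above background on no other CMP array. They entered the 34 chains only through the postmortem atrial array, so their part in its count was set by the filter. Genes outside the collagens can enter in the same way. The array thus stood apart at other genes as well as at collagens.

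Col4a3 and Col4a4 encode chains of the type IV network of kidney, ear and eye basement membranes, and both were highest on that array. Col4a3 (probe at chromosome 1, 82717775 to 82717834, mm9) was at -0.29 there and not well above background on any other array of the series, at least 14.9-fold higher than on the other CMP arrays. Col4a4 (chromosome 1, 82447879 to 82447938, mm9) measured 1.30 there and -1.98, -2.50 and -3.06 on the other CMP arrays, with -0.35 in adult and -1.86 and -2.11 in fetal heart. The other 2 Col4a4 probes were also highest there, at -3.23 and -0.32. The chains of the common trimer did not share this order, since Col4a1 and Col4a2 were lowest on the same array among CMPs.

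In RefSeq (GRCm38.p6) the gene extents of Col4a3 and Col4a4 overlap by 114 bases on opposite strands, and 71 bases lie between the start of Col4a3 and the listed start site of Col4a4. The middle 30 of them are shown because they lie before both of these starts. They are still inside the gene extent of Col4a4, which reaches beyond its listed start site. They lie at chr1:82586871-82586900 and are read on the minus strand, toward Col4a4.
Col4a4 to Col4a3: tggctgcacagggtggggggagtggccagc
None of the 3 motifs above was found in these 30 bases, of which 73.3% are G or C. The starts of Col4a1 and Col4a2 (chromosome 8) are 21 bases apart, with gene extents that overlap by 85 bases, and those of Col4a5 and Col4a6 (chromosome X) 1343 bases apart.

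Col10a1, the chain of hypertrophic cartilage, whose upstream sequence is printed above, was at -0.43 on the postmortem atrial array and dim on the other 6 arrays. It was at least 13.5-fold higher there than on the other CMP arrays. Col13a1, a transmembrane chain of cell contacts, was at -2.82 on that array, dim on the other CMP arrays, and -1.75 and -2.87 in fetal heart. Lower there than on any other CMP array were Col12a1 (-0.54 against 2.20, 1.96 and 1.91), Col5a2 (1.22), Col3a1 (7.70) and Col5a1 (5.37). Along with these the endothelial marker sum was 3.29 on this array and 3.55 to 4.18 on the other CMPs, and the mural marker sum 4.17 against 1.14 to 2.34. The endothelial sum is set mainly by Kdr (3.15 here and 2.71 to 3.44 on the other CMPs), while each of the other 6 markers was lowest here among CMPs, such as Tie1 (-3.85 against -1.16, -0.09 and -2.68). The mural sum here is set mainly by Rgs5 (3.25 against -2.60, 1.59 and -5.54) and Cspg4 (2.95 against 0.05, -0.61 and -1.67). Cnn1 (-0.66 against 0.51, 0.39 and 0.70) and Myh11 were lowest here among CMPs, and Abcc9 and Kcnj8 highest. Myh11, Abcc9 and Kcnj8 were above background on 2, 1 and 0 CMP arrays. The part of those markers in the collagen values was not tested. The chains therefore split on this array, with Col2a1, Col4a3, Col4a4 and Col10a1 at their highest of the 7 arrays and Col3a1, Col5a1, Col5a2 and Col12a1 at their lowest of the CMPs.

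The genes that make, cut, crosslink and bind collagen were read from lists beside the chains. Of all genes tested 22.8% were called higher and 25.2% lower against fetal heart, 24.6% and 24.6% against adult heart, and 18.8% and 18.2% in adult against fetal heart. Of 17 genes of chain hydroxylation and folding, 14 were higher and 2 lower in CMPs than in fetal heart (median 1.22), and 13 higher and 1 lower than in adult heart (median 2.10). Adult against fetal heart gave 2 higher and 8 lower. Of 6 tested propeptide processing genes 4 were higher in CMPs in each comparison and 0 lower. All 5 lysyl oxidase genes were higher than in adult heart, and 4 of them than in fetal heart. Of the fibril-binding proteins 3 of 8 tested were higher than in fetal and 3 of 7 than in adult heart, and 0 lower. Of 10 collagen receptors 5 were higher and 1 lower against fetal heart, and 7 of 9 higher against adult heart. Between postmortem and living CMPs, and between chambers, 0 of these genes were called.

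Single genes of these lists gave large differences. Against fetal heart the largest were Pcolce2 (6.70 ± 0.72), which enhances propeptide cleavage, the lysyl oxidase Loxl4 (5.85 ± 0.57) and the procollagen proteinase Adamts2 (5.84 ± 0.26, adjusted p = 0.000129). Adamts2 measured 7.73, 8.33, 8.64 and 8.62 in CMPs and 2.84 and 2.14 in fetal heart. Lower in CMPs were the collagen glycosyltransferase Glt25d2 (fetal heart at least 6.79-fold higher), the prolyl hydroxylase Leprel1 (-3.02 ± 0.39) and the platelet receptor Gp6 (fetal heart at least 2.52-fold higher). Against adult heart, Lox was at least 218-fold higher in CMPs (adjusted p = 0.000341), where it measured 3.07, 4.40, 4.60 and 5.35. P4ha3, a subunit of prolyl 4-hydroxylase, was at least 40.5-fold higher and fibronectin (Fn1) differed by 4.78 ± 0.27. Glt25d2 was at least 12.6-fold higher in adult heart. Adult heart exceeded fetal heart for Pcolce2 (4.49 ± 1.02), Dcn (2.73 ± 0.57) and Adamts2 (1.96 ± 0.36), and fell below it for Lox, Tnc and Fn1 (-3.17 ± 0.29). Fetal heart was at least 7.39-fold higher for Lox and at least 4.49-fold for Tnc, a matrix protein of developing tissue. The interaction with chamber called Fmod (3.09 ± 0.56), Postn (2.12 ± 0.53), Itga10 (-3.13 ± 0.85) and Lum (-2.03 ± 0.58) of these lists. None of these calls remained with quantile normalization.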

How the data were processed

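Cy3-labelled RNA of 7 samples (250 ng each) was measured on single-colour Agilent arrays. The authors deposited a scanner table per array with linear intensity values, made with Agilent Feature Extraction (per the file headers in version 10.7.3.1, per the submitters' processing notes in 9.5.3), and a series table of log2 values. The latter equalled the log2 processed intensity minus a constant per array for 99.44% to 99.55% of probes within 0.001. Further steps are not given in the sources used here.

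From these, flagged spots were left out (1106 over all arrays, and 11 of 55681 probes), spots of a probe averaged, and log2 processed signal taken minus each array's 75th percentile. The probe of highest mean stood for a gene (18 chains had more than 1). One fit with limma 3.58.1 in R 4.3.3 (lmFit, eBayes with a trend) held the 4 kinds of sample and chamber, with 2 residual degrees of freedom; the interaction left 1. A gene was tested where 1 side or both had every array above background. A bound sets the bright side's mean against, per dim array, its own signal or that of the faintest probe above background, whichever was higher. Data were simulated for CMPs against fetal heart and for postmortem against living CMPs, with a small share of genes changed by 4 or by 2 on the log2 scale. Nearly all of the larger changes and none of the smaller ones passed the threshold, so a missing call does not show equal values. In both comparisons the noise had an assumed size, not one estimated from these arrays, and every probe counted as above background. The outcome therefore holds for those settings alone. Against fetal heart far more genes differed in the data (22.8% called higher and 25.2% lower). Differences as small as 0.81 (Col1a1) were called there, so the simulation sets no size limit for that comparison. All arrays shared 1 slide and 1 scan day. Arrays give no depth, and their number limits the precision. Members and lists were chosen with earlier results of these data known. Named with a difference are the called chains, up to 8 in each direction by size, at least 3 in each direction, 12 major chains always, and up to 3 genes in each direction of the lists beside them; probes were on mouse build mm9. The chain listed on the array as Emid2 was not matched by the rule.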

Additional observations from a re-analysis of the deposited data

Results flagged for a closer look

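Among the 4 CMP arrays, 7 of 34 chains had 1 array far from the rest by Dixon's test (20.6%). Chance gives about 1 in 20, and over all 21817 genes above background on a CMP array the share was 9.41%. On the postmortem atrial array these were Col5a1 (5.37, next 6.19), Col12a1 (-0.54, next 1.91), Col16a1 (6.90, next 6.17), Col4a3 (-0.29, next -5.78), Col10a1 (-0.43, next -5.65) and Col13a1 (-2.82, next -5.80). For the last 3 chains the other CMP arrays were dim, so they entered only through the array on which they stand apart. Among the 27 chains above background on all 4 CMP arrays the share was 14.8% (4 chains), beside 6.26% of all such genes. Col18a1 was low on the living ventricular array (2.94, next 4.18). Each CMP array is a different source of cells, so these are not repeats of 1 culture.

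By the interaction term of limma 4 chains were called for a postmortem difference that depended on the chamber, beside 2.41% of all genes. Among them Col12a1 is also listed above. None of these calls remained with quantile normalization or without a variance trend. The ventricular minus the atrial difference was -2.48 for Col2a1, 2.21 for Col5a3, 2.79 for Col12a1 and 3.24 for Col8a2. Each rests on 4 single arrays and on the spread of the fetal pair.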

How the results depend on the processing

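Of the alternatives for named chains, 1422 values kept direction and side of the threshold, 38 lost and 66 gained a call, and 30 changed sign. The stricter filter, which tests fewer chains, left 4 lower chains against fetal heart, 0 lower against adult heart, and 7 called in adult against fetal heart (0 higher and 7 lower). Lower chains against adult heart came to 2 without a filter and with normexp. The calls of the interaction fell to 0 with quantile normalization and without a trend; the cause was not tested. With 1 array left out, calls against fetal heart ran from 21 to 29 (16 to 18 higher, 5 to 12 lower), against adult heart from 22 to 28 (20 to 22 higher, 2 to 6 lower), for adult against fetal heart from 15 to 22 (3 to 6 higher, 11 to 17 lower), for postmortem against living CMPs from 0 to 12 and for the chambers from 0 to 13. The interaction keeps a residual degree of freedom only without the adult array, an alternative chosen after seeing the data, where 3 chains were called. With 1 array left out the following values reached or crossed 0. Against fetal heart they were -0.53 to 0.00 for Col5a2 and -1.46 to 0.31 for Col6a3. For adult against fetal heart they were -0.14 to 0.07 for Col4a2, -0.25 to 0.75 for Col6a1, -0.39 to 0.80 for Col6a2 and -0.75 to 1.02 for Col6a3. For postmortem against living CMPs they were -0.06 to 1.49 for Col18a1, -0.99 to 0.53 for Col4a1, -0.76 to 0.36 for Col4a2, -0.81 to 0.07 for Col5a1, -0.23 to 0.46 for Col6a1 and -0.08 to 0.64 for Col6a2. For the chambers they were -0.77 to 1.46 for Col15a1, -1.29 to 0.25 for Col18a1, -0.27 to 0.42 for Col6a1 and -0.20 to 0.52 for Col6a2. Quantile normalization turned Col6a1 for the chambers (-0.03) and Col1a2 in the interaction (0.09), and the mean of probes turned Col9a1 for the chambers (0.29). None of these was called in the main setting. The slide as a block was not run, since all arrays were on 1 slide. No paired analysis was possible because the labels carry no replicate numbers, and chamber was a term of the fit; without it 0 chains were called between postmortem and living CMPs.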
